A study of Mus musculus with 10 samples.

Results

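The 37 genes described here are general macrophage and leukocyte genes, chosen by function from a list of names. Earlier results of these data were known when the genes were chosen. They include surface receptors of macrophages, Fc receptors, adaptors and subunits of the phagocyte NADPH oxidase. Among them are also transcription factors, scavenger and pattern receptors, and genes of monocytes and neutrophils. All 37 were found by symbol among the 56748 genes of the count table, and all 37 were among the 14068 genes with enough counts to be tested. They were measured by RNA sequencing of total RNA from whole liver, in 5 libraries of genotype ACSS2-HKO (HKO), labelled as a liver cell knockout of Acss2, and 5 of genotype ACSS2-flox (flox), the floxed control. ACSS2 is the enzyme that makes acetyl-CoA from acetate in the cytosol and nucleus. Both groups had spent 4 months on HFFD, a diet rich in fat and fructose that serves as a model of metabolic dysfunction-associated steatohepatitis, so no group on a normal diet enters the comparison. The sources used here give no Cre driver, strain, age, sex or batch, and do not say that each library came from a separate animal, so p-values measure the spread between these libraries.

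Phagocytes are the cells that take up particles and microbes. In the liver they are mainly Kupffer cells, the resident macrophages of the sinusoids, joined by monocytes that arrive from the blood and by neutrophils. They bind antibody-coated particles with Fc receptors, signal through adaptors that carry an activation motif called ITAM, and make superoxide with the NADPH oxidase. The factor PU.1, encoded by Spi1, acts at the promoters of many of these genes.

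The libraries held 15413648 to 19275358 counts in HKO and 16933436 to 17196774 counts in flox. Levels are CPM with TMM scaling, a gene's counts set to a common library total, and lists of 5 values run over replicates 1 to 5. The adjusted p is that of the edgeR quasi-likelihood test, Benjamini-Hochberg adjusted over all 14068 genes, and "called" means that it was under 0.05. Acss2, the targeted gene, was at 52.8, 59.0, 43.8, 40.2 and 51.4 CPM in HKO, against 73.2, 86.9, 56.5, 128.8 and 58.6 CPM in flox, so the groups overlapped. Its log2 fold change of -0.71 ± 0.21 (SE) was not called (adjusted p = 0.0858 in edgeR). Gss overlaps Acss2 on the other strand with 92.4% as many counts, and the deleted exons are not stated, so Acss2 checks the labels only weakly. Hepatocyte markers were high in both groups, with summed levels of 107683 to 136386 CPM in HKO and 83644 to 133179 CPM in flox. Flox replicate 5 stood apart for the genes described here, and counts that changed without it are given with their value.

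Most of the phagocyte genes were lower in HKO livers. Of the 37 genes, 24 (64.9%) were called lower, against 3.07% of all genes tested. None was higher: 0 of the 37 were called higher by edgeR, 0 were higher at an unadjusted p under 0.05 and 0 were called higher by DESeq2, while 0.917% of all tested genes were called higher. All 37 fold changes were negative, against 49.0% of all tested genes. The median log2 fold change of the 37 genes was -1.41, that is 37.6% of the flox level, and that of all tested genes was 0.01. The called genes were 1.65-fold to 4.82-fold lower. The genes and lists were chosen with earlier results of these data known, so contrasts with all tested genes are not an independent test. In whole tissue, fewer cells of a type and less RNA per cell cannot be told apart.

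For 23 of the 37 genes every HKO library lay below every flox library, which was so for 3.46% of all tested genes. For 0 of the 37 did every HKO library lie above, against 1.91% of all tested genes. The log2 fold change was -1 or less for 28 genes (4.75% of all tested genes), of which 23 were called. It was -2 or less for Adgre1, Lyz2 and Ly6c2. The 13 genes not called were Csf3r, Fcgr2b, Cd84, Ncf4, Cd14, Tlr2, Tlr4, Irf5, Irf8, Maf, Lcp1, S100a8 and S100a9. Without flox replicate 5, 15 genes were called lower, against 1.82% of all genes tested then, and the median log2 fold change of the 37 was -1.09. Leaving out HKO replicate 1, 2 or 5 also left 15 called (against 1.68%, 2.09% and 1.79% of all genes tested then), and leaving out HKO replicate 4 left 16 (against 1.53%). DESeq2 called 29 of the 37 lower, against 4.40% of the genes it tested.

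**Figure D1:**
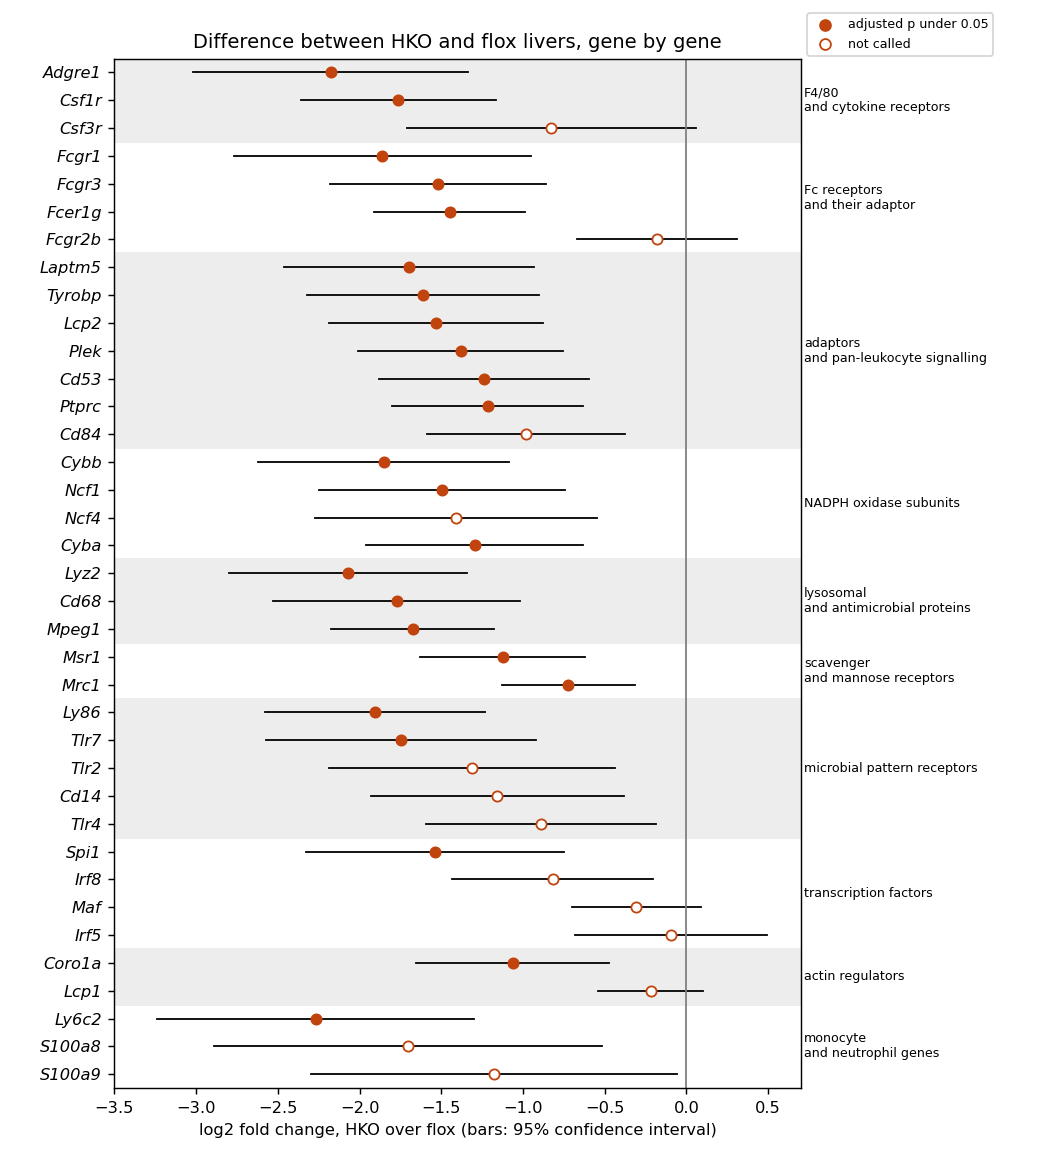
Log2 fold change of HKO over flox for each of the 37 genes, grouped by role, with 95% confidence intervals from edgeR; filled points are the 24 genes with an adjusted p under 0.05. All points lie left of 0, from -2.27 for Ly6c2 to -0.09 for Irf5.

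Promoters show how alike or unlike these genes are at their starts. RefSeq promoters on GRCm38.p6, from 250 bases before to 50 after the start site, were read for 27 of the 37 genes. The other genes, among them Csf1r and Cd14, were left out, so the motif shares describe these 27 only. The letters GAGGAA, the core of PU.1-type sites, were searched on both strands. They stood in the promoters of 14 of the 27 genes (51.9%) and of 31.3% of the 27025 genes in the RefSeq table. Among genes called lower it was 11 of 18, and among the others 3 of 9 (Cd84, Csf3r and S100a8, whose promoters are not printed). The C/EBP-type motif TTGCNNAA stood in 3 of 27 (11.1%, against 12.2% of all genes) and the AP-1-type motif TGANTCA in 3 of 27 (11.1%, against 8.97%). An IRF-type motif (GAAA, any pair of bases, GAAA) stood in 2 (7.41%, against 3.99%) and TATAAA in 5 (18.5%, against 15.7%). A match is a run of letters, not a bound site, and no test was made.

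The printed promoters are those of Fcgr1, Fcgr3 and Cybb, which were lower in HKO and hold GAGGAA, of Mpeg1, which was lower and holds none, and of Fcgr2b, which was not called and holds none. Each is read 5′ to 3′ on the strand of its gene, and capitals mark GAGGAA or, for a match on the other strand, TTCCTC.
Fcgr1: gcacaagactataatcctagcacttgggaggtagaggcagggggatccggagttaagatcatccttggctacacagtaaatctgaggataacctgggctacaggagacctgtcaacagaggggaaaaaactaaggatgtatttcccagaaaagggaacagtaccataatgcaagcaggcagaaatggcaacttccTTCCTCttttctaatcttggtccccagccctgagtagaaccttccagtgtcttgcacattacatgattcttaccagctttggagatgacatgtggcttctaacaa
Fcgr3: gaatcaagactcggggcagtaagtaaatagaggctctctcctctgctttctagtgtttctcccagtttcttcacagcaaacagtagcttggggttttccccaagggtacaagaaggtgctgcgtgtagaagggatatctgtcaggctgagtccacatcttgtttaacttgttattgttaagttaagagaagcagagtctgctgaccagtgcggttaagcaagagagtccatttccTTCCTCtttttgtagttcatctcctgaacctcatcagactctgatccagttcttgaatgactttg
Cybb: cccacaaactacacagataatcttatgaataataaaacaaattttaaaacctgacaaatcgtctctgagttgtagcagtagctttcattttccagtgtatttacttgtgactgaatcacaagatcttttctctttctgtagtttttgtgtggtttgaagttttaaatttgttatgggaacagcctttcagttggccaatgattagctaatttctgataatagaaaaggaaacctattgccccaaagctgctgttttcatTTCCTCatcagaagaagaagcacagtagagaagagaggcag
Mpeg1: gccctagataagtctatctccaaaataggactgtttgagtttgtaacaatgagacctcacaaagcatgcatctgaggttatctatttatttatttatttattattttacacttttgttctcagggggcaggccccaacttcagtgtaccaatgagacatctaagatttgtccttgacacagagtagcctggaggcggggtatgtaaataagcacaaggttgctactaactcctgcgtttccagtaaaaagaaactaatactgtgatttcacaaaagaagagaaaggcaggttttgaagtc
Fcgr2b: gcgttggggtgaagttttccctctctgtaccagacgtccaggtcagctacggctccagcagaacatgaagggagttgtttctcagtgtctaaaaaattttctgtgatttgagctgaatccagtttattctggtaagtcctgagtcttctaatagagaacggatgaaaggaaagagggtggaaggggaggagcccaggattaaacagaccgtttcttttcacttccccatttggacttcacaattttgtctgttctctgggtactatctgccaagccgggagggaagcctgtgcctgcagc
They lie at chr3:96293920-96294219, minus strand (Fcgr1), chr1:171059345-171059644, minus (Fcgr3), chrX:9469275-9469574, minus (Cybb), chr19:12460520-12460819, plus (Mpeg1) and chr1:170976022-170976321, minus (Fcgr2b). In the printed windows the match begins 55 bases before the start in Fcgr1, 15 bases before it in Fcgr3 and 9 bases after it in Cybb.

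Adgre1 and Csf1r, a pair of genes that mark macrophages, both fell by more than the median of the 37 genes. Adgre1 encodes the surface receptor F4/80 of tissue macrophages. It was at 3.37, 2.21, 3.04, 3.86 and 1.60 CPM in HKO, against 10.7, 8.59, 4.31, 18.3 and 21.6 CPM in flox. Every HKO library was below every flox library, and flox replicate 3 was the closest. The log2 fold change was -2.18 ± 0.39 (adjusted p = 0.0106 in edgeR), a mean 4.52-fold lower. Csf1r encodes the receptor for CSF1 and IL-34, on which macrophages depend for survival. Its level was 11.5, 18.5, 18.4, 15.1 and 11.6 CPM in HKO, against 37.9, 38.3, 28.9, 65.7 and 84.1 CPM in flox. No libraries overlapped, and the log2 fold change was -1.76 ± 0.28 (adjusted p = 0.00621 in edgeR). Hmgxb3 overlaps Csf1r on the other strand with 32.4% as many counts, and whether counting used strand is not stated in those sources.

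Csf3r, the receptor for the neutrophil growth factor G-CSF, was not called. It was at 1.43, 1.95, 7.20, 2.31 and 1.93 CPM in HKO, against 3.30, 3.90, 5.35, 5.67 and 7.96 CPM in flox. HKO replicate 3 stood above 4 of the flox libraries, while the other 4 HKO libraries were below all of flox. The log2 fold change was -0.83 ± 0.41 (adjusted p = 0.335 in edgeR) with all libraries, and -1.46 (adjusted p = 0.0163 in edgeR) without HKO replicate 3. A match to AC105061.2 covers 43.6% of the Csf3r transcript at 96.8% identity, and how reads matching both were counted is not stated.

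**Figure D2:**
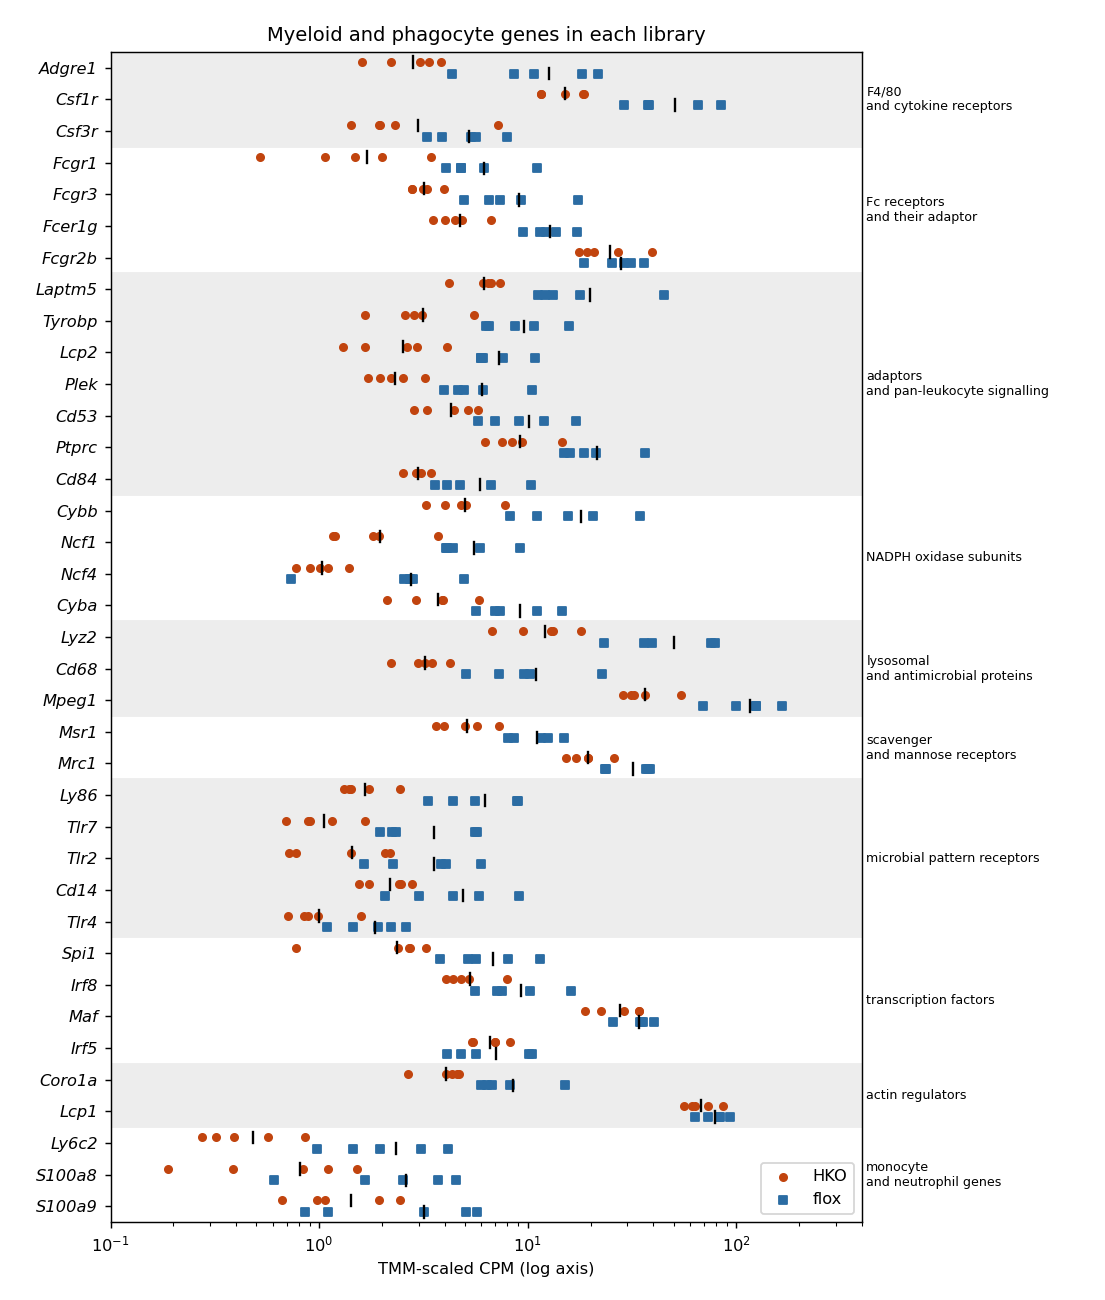
CPM on a log axis for each of the 37 genes in each library, with HKO above flox in each row. Most HKO points lie left of all flox points of the same gene, while Fcgr2b, Lcp1, Irf5 and Maf are mixed.

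The Fc receptor genes differed in their calls. The activating receptors Fcgr1 and Fcgr3 and their shared signalling chain Fcer1g were lower in HKO, and the inhibitory receptor Fcgr2b was not called, which made 3 of 4 genes lower (2 without flox replicate 5). Fcgr1, the high-affinity receptor for IgG, was at 0.519, 1.07, 3.44, 1.99 and 1.49 CPM in HKO, against 4.77, 4.81, 4.04, 6.19 and 11 CPM in flox. Only HKO replicate 3 came near the lowest flox library. The log2 fold change was -1.86 ± 0.42 (adjusted p = 0.0256 in edgeR). Without HKO replicate 2, 4 or 5 or flox replicate 5 its call was lost, with an edgeR adjusted p of 0.0617, 0.0546, 0.0613 and 0.0669.

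Fcgr3, a low-affinity activating receptor, was at 2.79, 2.77, 3.96, 3.28 and 3.14 CPM in HKO, against 4.96, 7.37, 6.55, 9.28 and 17.5 CPM in flox. The HKO libraries were close to each other and all below flox, with a log2 fold change of -1.52 ± 0.31 (adjusted p = 0.0158 in edgeR). Fcer1g, the ITAM chain that these receptors need to signal, was at 3.50, 4.03, 6.67, 4.5 and 4.85 CPM in HKO, against 9.55, 11.4, 12.3, 13.7 and 17.3 CPM in flox. The groups were well apart for Fcer1g, with a log2 fold change of -1.45 ± 0.21 (adjusted p = 0.00472 in edgeR). Fcgr2b, which restrains the activating receptors and is also a gene of sinusoidal endothelial cells, was at 19.2, 20.8, 39.4, 17.5 and 27.1 CPM in HKO, against 25.5, 18.7, 31.2, 29.0 and 36.1 CPM in flox. The groups were mixed, the highest library of all was HKO replicate 3, and the log2 fold change was -0.18 ± 0.23 (95% confidence interval -0.67 to 0.31; adjusted p = 0.755 in edgeR). The difference between Fcgr2b and Fcgr3 was set against library spread as a ratio. The log2 ratio of Fcgr2b to Fcgr3 was 2.86 ± 0.34 in HKO and 1.71 ± 0.56 in flox (SD, n = 5 each), with no overlap between groups. Its exact two-sided permutation p was 0.00794, the smallest that the design can give, and 0.119 after adjustment over the 15 ratios computed.

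Fcgr3 and Fcgr2b share part of their sequence. Their longest match covers 37.8% of the Fcgr3 transcript at 96.5% identity, and shorter matches were not added. The sources used here do not say how reads matching both were counted. By the coordinates of the deposited table, of which the build is uncertain, Fcgr2b (1:170786186-170804116), Fcgr3 (1:170878743-170892504) and Fcer1g (1:171057141-171061934) lie on chromosome 1. Fcgr1 lies on chromosome 3 (96190225 to 96201285).

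Of 7 adaptors and signalling genes of leukocytes 6 were called lower (median log2 fold change -1.38). Without flox replicate 5 it was 4 of 7, and with any 1 library left out 3 to 6. Tyrobp, the ITAM adaptor DAP12 of several myeloid receptors, was at 3.11, 2.84, 5.55, 2.57 and 1.65 CPM in HKO, against 6.30, 8.65, 6.5, 10.8 and 15.7 CPM in flox. HKO replicate 3 was the highest of HKO and still below all of flox, and the log2 fold change was -1.61 ± 0.33 (adjusted p = 0.0173 in edgeR). Laptm5, a lysosomal membrane protein of blood cells, was at 6.68, 6.43, 6.08, 7.33 and 4.19 CPM in HKO, against 13.2, 12.1, 11.2, 17.9 and 44.9 CPM in flox. The last flox library was far above the other 4, and without it the log2 fold change was -1.14 (adjusted p = 0.0172 in edgeR), against -1.70 ± 0.36 (adjusted p = 0.0185 in edgeR) with it. Lcp2, the adaptor SLP-76, averaged 2.53 ± 1.11 CPM in HKO and 7.30 ± 2.09 CPM in flox (SD, n = 5 each; log2 fold change -1.53 ± 0.31; adjusted p = 0.0156 in edgeR).

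Ptprc, the phosphatase CD45 found on all leukocytes, was at 6.22, 8.45, 14.6, 7.52 and 9.37 CPM in HKO, against 16, 14.9, 21.2, 18.6 and 36.4 CPM in flox. HKO replicate 3 lay just under the lowest flox library, and the log2 fold change was -1.22 ± 0.27 (adjusted p = 0.0240 in edgeR). Without HKO replicate 1, 2, 4 or 5 or flox replicate 5 the adjusted p of Ptprc was 0.0516 to 0.0637. The tetraspanin gene Cd53 had a log2 fold change of -1.24 ± 0.30 (adjusted p = 0.0332 in edgeR). It lost its call without HKO replicate 1, 2, 3 or 5 or flox replicate 1, 4 or 5 (edgeR adjusted p 0.0507 to 0.0883). Plek, or pleckstrin, a substrate of protein kinase C, had -1.38 ± 0.29 (adjusted p = 0.0193 in edgeR, and 0.0501 without HKO replicate 5). Cnrip1 overlaps Plek on the other strand with 15.0% as many counts. Cd84, a receptor of the SLAM family, was at 2.98 ± 0.333 CPM in HKO and 5.88 ± 2.74 CPM in flox (SD, n = 5 each). Its groups did not overlap, but its log2 fold change of -0.98 ± 0.28 was not called (adjusted p = 0.0756 in edgeR; DESeq2 0.0231).

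The NADPH oxidase of phagocytes has a membrane core of Cybb (gp91phox) and Cyba (p22phox) and cytosolic subunits, among them Ncf1 (p47phox) and Ncf4 (p40phox). Of these 4 genes 3 were called lower (1 without flox replicate 5, and 1 to 4 with any 1 library left out). DESeq2 called all 4 lower. Cybb was at 4.80, 4.03, 7.80, 5.08 and 3.25 CPM in HKO, against 15.7, 11, 8.19, 20.6 and 34.5 CPM in flox. HKO replicate 3 and flox replicate 3 nearly met, and the other libraries were far apart. The log2 fold change of Cybb was -1.85 ± 0.36 (adjusted p = 0.0140 in edgeR). Cyba averaged 3.73 ± 1.38 CPM in HKO and 9.14 ± 3.70 CPM in flox (SD, n = 5 each), and HKO replicate 3 overlapped the lowest flox library. Its log2 fold change was -1.30 ± 0.31 (adjusted p = 0.0315 in edgeR).

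Ncf1 was at 1.17, 1.20, 3.70, 1.93 and 1.82 CPM in HKO, against 4.04, 4.38, 4.09, 5.90 and 9.22 CPM in flox. Every HKO library was below flox, and the log2 fold change was -1.50 ± 0.35 (adjusted p = 0.0289 in edgeR). Gtf2ird2 overlaps Ncf1 on the other strand with 192.1% as many counts. Ncf4 was at 0.778, 1.01, 1.39, 0.900 and 1.10 CPM in HKO, against 0.734, 2.74, 2.57, 2.81 and 4.94 CPM in flox. Flox replicate 1 lay below all HKO libraries while the other 4 flox libraries lay above them. The log2 fold change of Ncf4 was -1.41 ± 0.40 (adjusted p = 0.0709 in edgeR), and -1.65 (adjusted p = 0.0152 in edgeR) without flox replicate 1. Cyba lost its call without HKO replicate 1, 2, 4 or 5 or flox replicate 4 or 5 (edgeR adjusted p 0.0602 to 0.0837), and Ncf1 without HKO replicate 1, 2, 4 or 5 or flox replicate 5 (0.0671 to 0.0754).

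All 3 lysosomal and antimicrobial genes were lower, with a median log2 fold change of -1.77. Mpeg1 encodes perforin-2, a pore-forming protein of macrophages. It was at 32.3, 28.6, 54.3, 36.7 and 31.2 CPM in HKO, against 100.04, 123.8, 69.6, 124.3 and 166.3 CPM in flox. No library overlapped, and the log2 fold change of -1.67 ± 0.23 had the smallest adjusted p of the 37 genes (edgeR, 0.00334). Lyz2 encodes the lysozyme of macrophages and neutrophils. It was at 9.46, 18, 12.9, 13.2 and 6.78 CPM in HKO, against 35.9, 39.3, 23.3, 75.2 and 78.9 CPM in flox. Its HKO libraries were all below flox, with a log2 fold change of -2.07 ± 0.34 (adjusted p = 0.00745 in edgeR). Lyz2 was the only gene of the 37 with a near-identical copy, Lyz1, at 95.8% identity over 96% of its transcript. Cd68, a glycoprotein of macrophage lysosomes, was at 2.2, 3.47, 4.23, 3.21 and 2.98 CPM in HKO, against 9.61, 7.31, 5.08, 10.3 and 22.7 CPM in flox. Those groups did not overlap either, with a log2 fold change of -1.77 ± 0.35 (adjusted p = 0.0154 in edgeR).

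Both scavenger receptor genes were called lower, with log2 fold changes nearer 0 than the median of the 37 genes. Without flox replicate 5, 1 of the 2 was called, and without HKO replicate 1, 0 were. Msr1, the scavenger receptor A that binds modified lipoproteins, was at 3.95, 4.98, 5.68, 7.26 and 3.64 CPM in HKO, against 11.6, 8.59, 8.03, 12.5 and 14.9 CPM in flox. All HKO libraries were below flox, and the log2 fold change was -1.12 ± 0.24 (adjusted p = 0.0183 in edgeR, and 0.0501 without HKO replicate 1). Mrc1, the mannose receptor of macrophages and of sinusoidal endothelium, was at 15.2, 19.5, 25.9, 17 and 19.5 CPM in HKO, against 37.6, 23.8, 23.5, 37 and 38.5 CPM in flox. HKO replicate 3 was above flox replicates 2 and 3, and the log2 fold change of -0.72 ± 0.19 passed narrowly (adjusted p = 0.0485 in edgeR). Mrc1 lost its call without HKO replicate 1, 2, 4 or 5 or flox replicate 1, 4 or 5 (edgeR adjusted p 0.0927 to 0.124).

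Among the genes that sense microbial patterns, Tlr7 and Ly86 were called lower (Ly86 alone without flox replicate 5), and Cd14, Tlr2 and Tlr4 were not. DESeq2 called 4 of these 5 genes lower, all but Tlr4. Ly86 (MD-1), the partner of the receptor RP105, was at 1.43, 1.39, 2.44, 1.74 and 1.32 CPM in HKO, against 4.41, 5.60, 3.33, 8.94 and 8.86 CPM in flox. Its groups were apart, with a log2 fold change of -1.91 ± 0.31 (adjusted p = 0.00753 in edgeR). Tlr7, the endosomal receptor for single-stranded RNA, was at 0.907, 0.693, 1.65, 1.16 and 0.882 CPM in HKO, against 5.57, 1.95, 2.24, 2.35 and 5.69 CPM in flox. Flox replicates 1 and 5 were far above the other 3, and the log2 fold change was -1.75 ± 0.38 (adjusted p = 0.0224 in edgeR). Tlr7 lost its call without HKO replicate 1, 2, 4 or 5 or flox replicate 5 (edgeR adjusted p 0.0523 to 0.0577).

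Cd14, the co-receptor for bacterial lipopolysaccharide, was at 1.56, 2.46, 2.78, 1.74 and 2.43 CPM in HKO, against 4.41, 2.07, 3.0, 5.84 and 9.12 CPM in flox. Flox replicate 2 lay among the HKO libraries. Its log2 fold change was -1.16 ± 0.36 (adjusted p = 0.0967 in edgeR, and 0.0443 without flox replicate 2). Tlr2, the receptor for bacterial lipoproteins, was at 1.43 ± 0.694 CPM in HKO and 3.55 ± 1.71 CPM in flox (SD, n = 5 each), with a log2 fold change of -1.31 ± 0.41 (adjusted p = 0.0959 in edgeR, and 0.0472 without flox replicate 3). Tlr4, the signalling receptor for lipopolysaccharide, was at 1.0 ± 0.342 CPM in HKO and 1.86 ± 0.602 CPM in flox (SD, n = 5 each). Its log2 fold change of -0.89 ± 0.33 had an edgeR adjusted p of 0.165, and a long noncoding RNA that overlaps it on the same strand had 59.8% as many counts.

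Of the 4 transcription factors, Spi1 alone was called lower (0 of 4 without flox replicate 5). Spi1 encodes PU.1, which directs macrophage development. It was at 2.72, 2.71, 3.24, 2.38 and 0.772 CPM in HKO, against 3.79, 5.66, 5.19, 8.08 and 11.5 CPM in flox. HKO replicate 5 was far below the other 4, all of HKO was below flox, and the log2 fold change was -1.54 ± 0.37 (adjusted p = 0.0316 in edgeR). Spi1 lost its call without HKO replicate 1, 2 or 4 or flox replicate 4 or 5 (edgeR adjusted p 0.0575 to 0.0861). Irf8, a regulator of monocyte and dendritic cell development, was at 4.80, 5.23, 7.93, 4.37 and 4.08 CPM in HKO, against 5.57, 7.13, 10.2, 7.51 and 16.1 CPM in flox. HKO replicate 3 lay inside the flox range, and the log2 fold change was -0.82 ± 0.29 (adjusted p = 0.145 in edgeR).

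Maf, a regulator of resident macrophages that other liver cells use too, was at 18.7, 28.8, 34.2, 22.4 and 34.2 CPM in HKO, against 40.5, 25.5, 34.5, 35.7 and 34.8 CPM in flox. The groups overlapped, and the log2 fold change was -0.31 ± 0.18 (95% confidence interval -0.70 to 0.09; adjusted p = 0.438 in edgeR). Irf5, an interferon regulatory factor of macrophages, was at 8.23, 7.0, 5.48, 7.01 and 5.40 CPM in HKO, against 4.10, 4.81, 5.68, 10.2 and 10.5 CPM in flox. Its HKO libraries lay inside the flox range, with a log2 fold change of -0.09 ± 0.27 (95% confidence interval -0.68 to 0.49; adjusted p = 0.912 in edgeR) that turned to 0.08 without flox replicate 4 and 0.10 without flox replicate 5. Tnpo3 overlaps Irf5 on the other strand with 543.4% as many counts.

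Coro1a (coronin 1A) and Lcp1 (L-plastin), both regulators of the actin cytoskeleton in leukocytes, differed in their calls. Coro1a was at 2.66, 4.35, 4.56, 4.69 and 4.08 CPM in HKO, against 6.0, 6.39, 6.72, 8.19 and 15.1 CPM in flox. The HKO libraries were all below flox, with a log2 fold change of -1.06 ± 0.27 (adjusted p = 0.0461 in edgeR). It lost its call when HKO replicate 1, 2, 3, 4 or 5 or flox replicate 2, 4 or 5 was left out (edgeR adjusted p 0.0534 to 0.107), and Bola2 overlaps it on the other strand with 217.8% as many counts. Lcp1 was at 73.2, 56.1, 61.5, 86.2 and 63.1 CPM in HKO, against 83.7, 72.9, 63.4, 82.9 and 92.9 CPM in flox. The libraries of Lcp1 were mixed, and the log2 fold change was -0.22 ± 0.15 (95% confidence interval -0.54 to 0.10; adjusted p = 0.507 in edgeR).

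Ly6c2, S100a8 and S100a9 are high in monocytes and neutrophils, and their counts were low. Ly6c2, a surface antigen of inflammatory monocytes, was at 0.389, 0.567, 0.859, 0.321 and 0.276 CPM in HKO, against 0.979, 1.46, 1.97, 3.09 and 4.13 CPM in flox. The groups were apart, with a log2 fold change of -2.27 ± 0.45 (adjusted p = 0.0155 in edgeR) from 38 counts in HKO and 212 in flox. The longest match of Ly6c2 to Ly6c1 covers 22.2% of the Ly6c2 transcript at 98.3% identity, and shorter matches were not added. S100a8 and S100a9 encode the calprotectin subunits of neutrophils and monocytes. S100a8 was at 1.10, 0.189, 1.52, 0.835 and 0.386 CPM in HKO, against 1.65, 0.609, 2.51, 3.72 and 4.53 CPM in flox. S100a9 was at 0.972, 1.07, 2.44, 1.93 and 0.661 CPM in HKO, against 1.10, 0.853, 3.17, 5.73 and 5.04 CPM in flox. S100a8 overlapped through flox replicate 2 and S100a9 through flox replicates 1 and 2, and neither was called. The log2 fold changes were -1.70 ± 0.55 (adjusted p = 0.114 in edgeR) for S100a8 and -1.18 ± 0.52 (adjusted p = 0.269 in edgeR) for S100a9. DESeq2 called S100a8 lower but not S100a9.

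Compared per length, as mean CPM per kilobase of gene model, Lyz2 and Mpeg1 ranked highest of the 37 genes in both groups. The length is that of the gene model in the deposited table, not of the transcripts present, so the ranks depend on it. Lyz2 was at 9.16 CPM per kilobase in HKO and 38.4 in flox, and Mpeg1 at 8.45 in HKO and 27.0 in flox. Lcp1, at 7.16 CPM per kilobase in HKO and 8.33 in flox, ranked 3 in HKO and 8 in flox. Fcgr2b ranked 6 in HKO (4.28 CPM per kilobase) and 14 in flox (4.85), and Maf ranked 8 in HKO (3.36) and 15 in flox (4.15). Csf1r ranked 11 in HKO (2.60) and 5 in flox (8.83). Ly6c2 and Tlr4 held the lowest ranks in both groups, at 0.176 and 0.180 CPM per kilobase in HKO, against 0.849 and 0.334 in flox.

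The same libraries stood high or low for many of the genes. The summed level of the 37 genes was 260.9, 280.4, 376.0, 304.2 and 268.9 CPM in HKO, against 546.3, 515.8, 449.9, 713.1 and 952.5 CPM in flox. No HKO library reached the lowest flox library. Flox replicate 5 was the highest flox library for 34 of the 37 genes and the highest of all 10 for 33. HKO replicate 3 was the highest HKO library for 26 genes. The lowest of all 10 libraries was HKO replicate 1 for 13 genes and HKO replicate 5 for another 13. The median deviation of the genes from their mean log2 level was -0.85, -0.58, -0.16, -0.61 and -0.90 in HKO, and 0.41, 0.24, 0.25, 0.86 and 1.49 in flox.

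**Figure D3:**
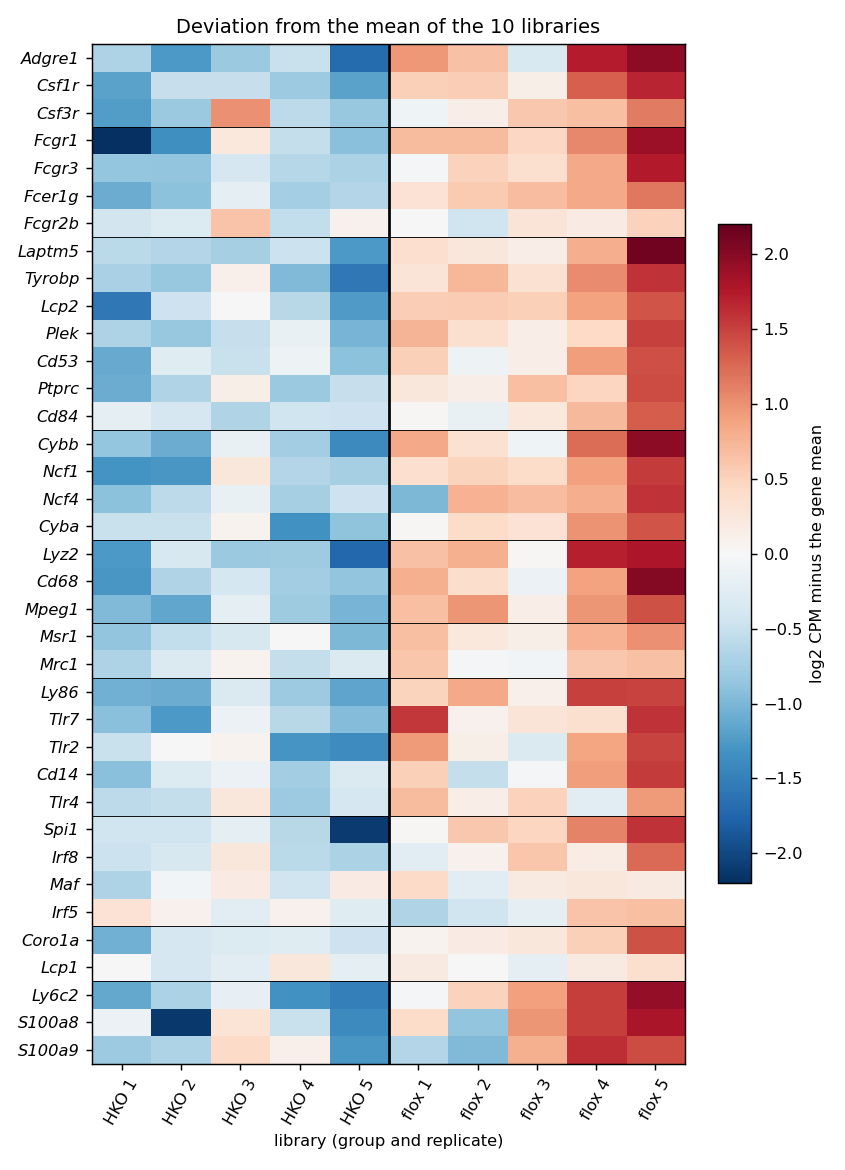
Deviation of each gene from its own mean log2 CPM over the 10 libraries, 1 column per library with HKO left of flox. The medians of the 37 genes, not drawn, lie from -0.90 to -0.16 in HKO and from 0.24 to 1.49 in flox, with flox replicate 5 highest.

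Whether members differed by unequal amounts was tested for 15 ratios of a member to another, with exact two-sided permutation tests. None of the 15 passed after Benjamini-Hochberg adjustment, while 6 had an unadjusted exact p under 0.05, and a lone ratio at the smallest p would adjust to 0.119. Beside Fcgr2b to Fcgr3, those 6 were Mrc1 to Adgre1, Msr1 to Adgre1, Cd14 to Adgre1, Maf to Spi1 and Irf8 to Spi1. The log2 ratio of Mrc1 to Adgre1 was 2.78 ± 0.62 in HKO and 1.5 ± 0.64 in flox (SD, n = 5 each; exact p = 0.0238, adjusted 0.119). The log2 ratio of Maf to Spi1 was 3.58 ± 0.98 in HKO and 2.39 ± 0.68 in flox (SD, n = 5 each; exact p = 0.0476, adjusted 0.119). The ratio of the ITAM adaptors, Fcer1g to Tyrobp, differed by 0.16 (exact p = 0.603, adjusted 0.689), and that of Ly6c2 to Adgre1 by 0.04 (exact p = 0.944).

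**Figure D4:**
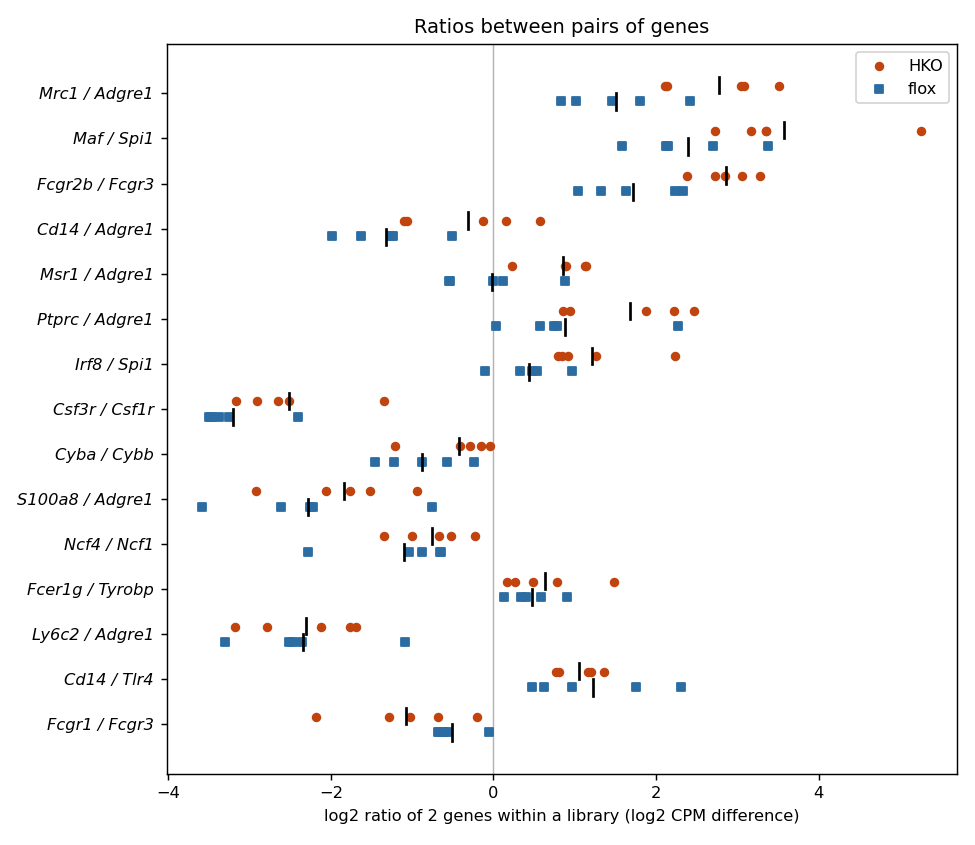
Log2 ratio between pairs of the genes in each library, with HKO above flox for each of the 15 pairs. Fcgr2b over Fcgr3 is the pair with the smallest exact p and no overlap, at 2.38 to 3.27 in HKO and 1.04 to 2.33 in flox.

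Genes that work with the 37 in the same pathways were also lower in part. Of 113 such partner genes in 7 lists, 93 were tested, 30 (32.3%) were called lower, 1 was called higher and 62 were not called (median log2 fold change -0.94). Without flox replicate 5, 21 were called lower, and without HKO replicate 1, 18 were. The partners of Fc receptor and ITAM signalling had 10 of 19 tested genes lower (6 without flox replicate 5) and a median of -1.32. Among them Vav1, an exchange factor for Rac, had a log2 fold change of -1.79 ± 0.32 (adjusted p = 0.0106 in edgeR), and Sirpa, the receptor for the CD47 signal, had -1.73 ± 0.32 (adjusted p = 0.0126 in edgeR).

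The NADPH oxidase partners had 2 of 7 tested genes lower and a median of -0.16, with log2 fold changes of up to 0.69. DESeq2 called 2 of them lower and 1 higher. Among these, Rac2, the Rac of blood cells, averaged 3.13 CPM in HKO and 9.97 CPM in flox (log2 fold change -1.68 ± 0.35; adjusted p = 0.0191 in edgeR, and 0.0519 without HKO replicate 4). Leukocyte actin and adhesion partners had 9 of 17 tested genes lower (6 without flox replicate 5) and a median of -1.35. Itgal, the integrin chain of LFA-1, had -1.56 ± 0.21 (adjusted p = 0.00300 in edgeR), Nckap1l had -1.81 ± 0.32 (0.00988) and Hcls1 had -1.62 ± 0.29 (0.0104).

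Toll-like receptor partners had 18 tested genes and a median of -0.04. At an unadjusted edgeR p under 0.05, 5 were lower, and DESeq2 called 5 of the list lower. After adjustment, 2 of the 18 were called lower by edgeR. These were Cd180, which encodes RP105, the partner of the Ly86 product, at 0.872 CPM in HKO and 4.47 CPM in flox (-2.36 ± 0.45; adjusted p = 0.0132 in edgeR), and Tlr1, the partner of TLR2, at 0.616 CPM in HKO and 2.74 CPM in flox (-2.15 ± 0.42; adjusted p = 0.0146 in edgeR). Of the colony-stimulating factors and receptors 1 of 5 tested was called lower. This was Csf2ra, at 4.14 CPM in HKO and 9.90 CPM in flox (-1.26 ± 0.25; adjusted p = 0.0152 in edgeR). All 5 had a negative log2 fold change, with a median of -0.98, and 3 were lower at an unadjusted edgeR p under 0.05. DESeq2 called 3 of this list lower. Scavenger and lectin receptor partners had 6 of 13 tested genes lower (4 without flox replicate 5) and a median of -0.45. Cd36, the fatty acid translocase that hepatocytes also make, averaged 70.0 CPM in HKO and 314.2 CPM in flox (-2.17 ± 0.38; adjusted p = 0.00978 in edgeR). Clec4n, the C-type lectin dectin-2, had -1.97 ± 0.36 (adjusted p = 0.0113 in edgeR), and Axl, a receptor that takes part in the uptake of dying cells, had -1.33 ± 0.28 (adjusted p = 0.0181 in edgeR).

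Partner transcription factors had 0 of 14 tested genes called lower by edgeR, with 5 lower at an unadjusted p under 0.05 and 2 called by DESeq2. Id3, a factor of Kupffer cell development that other liver cells also express, was the lone partner called higher, at 48.0 ± 19.2 CPM in HKO and 21.7 ± 7.26 CPM in flox (SD, n = 5 each; log2 fold change 1.15 ± 0.28; adjusted p = 0.0332 in edgeR). Its groups overlapped, and its adjusted p was 0.0567 to 0.0828 without HKO replicate 3, 4 or 5 or flox replicate 1, 3 or 4.

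**Figure D5:**
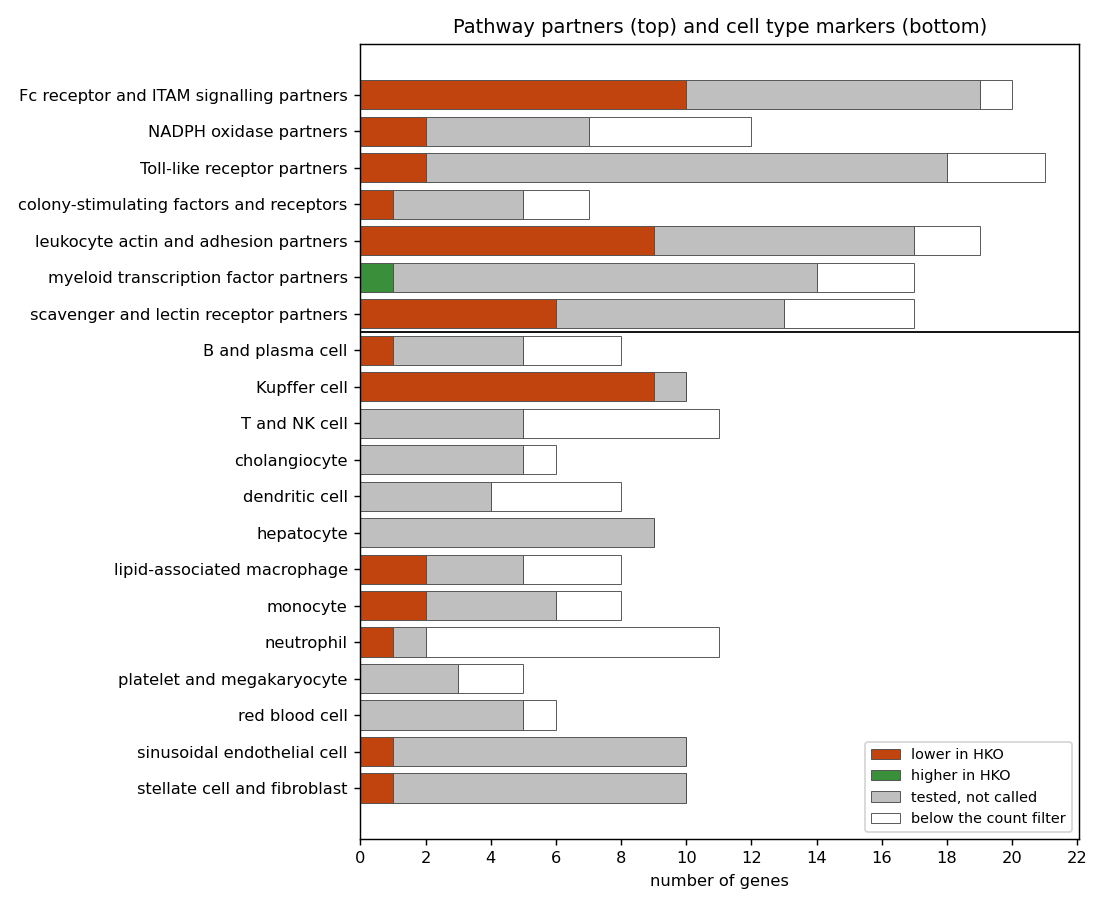
Number of genes in each partner list (top) and cell type marker list (bottom) called lower in HKO, called higher in HKO, tested and not called, or below the count filter. Kupffer cell markers have 9 of 10 genes called lower and the hepatocyte, T and NK cell, dendritic cell, cholangiocyte, platelet and red blood cell lists have 0.

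Markers of cell types that the tissue could hold were read beside the 37 genes. Of 10 Kupffer cell markers 9 were called lower (6 without flox replicate 5), at a median log2 difference of -1.51. Their summed level was 76.2 to 180.1 CPM in HKO and 216.0 to 508.8 CPM in flox. C1qb, a chain of complement C1q made by macrophages, averaged 11.6 CPM in HKO and 37.8 CPM in flox (-1.71; adjusted p = 0.00602 in edgeR), and Cd5l, a secreted protein of Kupffer cells, 25.8 CPM in HKO and 103.8 CPM in flox (-2.01; adjusted p = 0.00621 in edgeR).

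Of 8 lipid-associated macrophage markers 5 were tested, and 2 of them were called lower. All 5 had a negative log2 fold change, with a median of -1.86. At an unadjusted edgeR p under 0.05, 3 were lower, and DESeq2 called 3 of the list lower. Atp6v0d2, a proton pump subunit, had a log2 fold change of -2.46 ± 0.31 (adjusted p = 0.00197 in edgeR). Lgals3 (galectin-3) had -2.39 ± 0.55 (adjusted p = 0.0259 in edgeR), and -1.39 without flox replicate 5. Of 6 tested monocyte markers Plac8 and Treml4 were called lower (0 without flox replicate 5). All 6 had a negative log2 fold change, with a median of -1.73, and all 6 had an unadjusted edgeR p under 0.05. Leaving out a single library, HKO replicate 1, 2, 4 or 5, gave Lgals3 an adjusted p of 0.0598 to 0.0661 and Plac8 one of 0.0518 to 0.0702. Plac8 also lost its call without flox replicate 4 (0.0536) or 5 (0.0671), and Treml4 without HKO replicate 1, 2 or 4 or flox replicate 5 (0.0513 to 0.0555). Neutrophil markers were low, with 9 of 11 below the filter and a summed level of 1.38 to 2.84 CPM in HKO and 3.11 to 14.7 CPM in flox. Of the 2 tested, Prtn3, a protease of neutrophil granules, was called lower (-2.34 ± 0.49; adjusted p = 0.0185 in edgeR). DESeq2, which filters low counts differently, called 5 of the 11 lower.

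Few markers of lymphocytes, endothelial cells and stellate cells were called. T and NK cell markers had 0 of 5 tested genes called lower by edgeR, 0 at an unadjusted p under 0.05 and 0 by DESeq2, with summed levels of 4.63 to 8.33 CPM in HKO and 4.28 to 7.68 CPM in flox. B and plasma cell markers had 1 of 5 lower (0 without flox replicate 5), the antibody light chain gene Igkc, which was called with all 10 libraries (-1.62 ± 0.40; adjusted p = 0.0381 in edgeR) but not without HKO replicate 1, 2, 4 or 5 or flox replicate 3, 4 or 5 (0.0698 to 0.0950). Sinusoidal endothelial markers, a list that includes Fcgr2b, had 1 of 10 lower (0 without flox replicate 5), a median of -0.44, and all 10 fold changes below 0. Their summed level was 99.8 to 200.4 CPM in HKO and 135.6 to 206.7 CPM in flox. The lower gene, Cdh5, had -0.87 ± 0.20 (adjusted p = 0.0261 in edgeR), and 0.0569 to 0.0722 without HKO replicate 1, 2 or 4 or flox replicate 4 or 5. Stellate cell markers had 1 of 10 lower, Vim, the intermediate filament vimentin (-1.25 ± 0.24; adjusted p = 0.0148 in edgeR). Their median was -0.47, with 7 of 10 fold changes below 0. More markers were lower at an unadjusted edgeR p under 0.05. These were 5 of 10 for stellate cells, 3 of 10 for sinusoidal endothelium and 2 of 5 for B and plasma cells, with 0 higher in each list. The part of any of these cell types in the levels of the 37 genes was not tested.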

How the data were processed

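Total RNA of 10 liver samples was sequenced (VAHTS Universal V6 library kit, from the extract protocol). Per the labels and the file itself, the authors deposited raw, whole-number counts per gene. The submitters' processing notes name mm10 and DESeq2, while aligner, counter, annotation and strand setting are not given in the sources at hand. The table's coordinates have an uncertain build: 2.83% of the 52073 identifiers found in GENCODE M21 (GRCm38), and 0 of the 37 genes, have the same start and end there.

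HKO and flox were compared by the quasi-likelihood F-test of edgeR 4.0.16 (R 4.3.3) with TMM scaling, filterByExpr by group and Benjamini-Hochberg adjustment over 14068 genes, with a threshold of 0.05. Levels are TMM-scaled CPM, and each log2 fold change, HKO over flox, is given ± SE (standard error). Ratios used log2 CPM with a prior count of 2 and exact permutation over all assignments of libraries to groups. DESeq2 1.42.0, other scalings, filters, a replicate block and leaving out each library were alternatives. The genes and lists were chosen with earlier results of these data known. Partners and markers are named by rule: of the called genes of a list, up to 3 with the lowest p, or, with none called, the 1 with the highest level. Some genes that this rule names are not reported here. Libraries of a group differed beyond sampling noise (chi-square per degree of freedom of 24.6 or more; genes under 20 counts left out). Tested on simulated counts for 13849 genes, edgeR recovered 53% of 2-fold and 90% of 4-fold changes, and 11 of 154 calls were false. Near-identical copies (at least 95% identity over 50% of the transcript in a single match) were sought with BLAST 2.17.0.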

Additional observations from a re-analysis of the deposited data

Results flagged for a closer look

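Of 140 checks, each of 1 gene in 1 group of 5 libraries, 12 found a highest library set far apart from the other 4. For independent values with a normal spread, chance would give about 1 in 20. The checks used CPM without a log, on genes read in the same libraries, so that rate need not hold here. In all 12 the library was high, 9 times flox replicate 5 and 3 times HKO replicate 3, and 3 of the 12 were among the 74 checks on the 37 phagocyte genes. These were Csf3r in HKO replicate 3, at 7.20 CPM against 1.43 to 2.31 CPM in the other HKO libraries, Laptm5 in flox replicate 5, at 44.9 CPM against 11.2 to 17.9 CPM in the other flox libraries, and Coro1a in flox replicate 5, at 15.1 CPM against 6.0 to 8.19 CPM.

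Among partners and markers, flox replicate 5 was set apart for Axl (43.5 CPM against 16.3 to 22.7 CPM), Cd180 (9.17 against 2.35 to 4.02), Csf2ra (15.1 against 7.83 to 9.66), Lgals3 (33.2 against 4.22 to 7.61), Nckap1l (18.8 against 6.15 to 7.68), Spp1 (145.5 against 29.4 to 52.9) and Vim (47.0 against 22.6 to 25.0). HKO replicate 3 was set apart for Bst2 (153.4 CPM against 82.2 to 101.9 CPM) and Treml4 (2.97 against 0.716 to 1.35).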

How the results depend on the processing

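All 37 genes kept a negative fold change under every alternative that gave them a value, except Irf5, which was at 0.08 without flox replicate 4 and 0.10 without flox replicate 5 and ran from -0.23 to 0.10 with 1 library left out. The count called lower, 24, was 15 to 25 with 1 library left out, 29 in DESeq2 and 19 to 26 under the other alternatives. Adgre1, Cd68, Csf1r, Cybb, Fcer1g, Fcgr3, Laptm5, Lcp2, Ly6c2, Ly86, Lyz2, Mpeg1 and Tyrobp were called under all alternatives that tested them (Ly6c2 was not tested with at least 1 CPM in 5 libraries). Partners called lower, 30, ran from 18 to 33 with 1 library left out, and genes called in the whole table, 561, from 289 to 673, with 1112 in DESeq2, of which 560 were shared. The Acss2 log2 fold change passed with library totals alone (-0.80), with no filter on low counts (-0.70), in DESeq2 (-0.70) and without flox replicate 3, and ran from -0.81 to -0.47 with 1 library left out; the cause was not tested. Of the ratios, 0 passed adjustment under any alternative. With 1 library left out, the log2 ratio difference of Fcer1g to Tyrobp ran from -0.051 (without HKO replicate 5) to 0.28, that of Cd14 to Tlr4 from -0.35 to 0.11 (without flox replicate 4), and that of Ly6c2 to Adgre1 from -0.20 to 0.35, below 0 without HKO replicate 2, 3 or 5 or flox replicate 1 or 4 and at -0.12 with a prior count of 0.5. Replicate numbers did not pair the libraries (correlations from -0.12 to 0.24, with 1 of 5 HKO libraries nearest to its own number). Of the other genes, neither called, with 1 library left out Itga2b ran from -0.17 to 0.13 (positive without flox replicate 3) and Spp1 from -0.58 to 0.18 (positive without flox replicate 5). The cause of these turns was not tested. With the replicate block 19 of the 37 genes (2.22% of all tested genes were lower), 21 partners and 448 genes in all were called. The lowest counts among the 37 genes in HKO were those of Ly6c2 (38 in all) and S100a8 (63).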
